A study of Danio rerio with 6 samples.

Results

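Genes that make the building blocks of DNA were examined in sorted blood progenitors of zebrafish (Danio rerio) embryos. The set comprises the subunits of ribonucleotide reductase (rrm1, rrm2, rrm2b), thymidylate genes (tyms, dhfr, tk1) and genes of the steps around dUMP and dTMP (dut, dctd, dtymk). Members were chosen by symbol and not by a cut on their values, though with earlier results of these data known. The 9 symbols matched 10 of 32520 gene IDs, since 2 IDs share the symbol RRM2, and symbols are printed as the name table spells them. All 10 passed the filter on low counts. RNA-seq libraries were each made from 30000 cells of embryos at 20 h post fertilization, dissociated with Liberase and sorted for red fluorescent protein (RFP). The RFP came from a gene-trap allele of the zinc finger gene blf, so the sort relied on a locus that is itself mutated. The 3 control libraries carry the genotype blf-/- in the sample field, whereas the series design gives blf+/-. The 3 other libraries, called mutant here, are labelled blf-/-; drl 4KO. Each group shared the trap allele, the stage, the dissociation and the sort.

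Ribonucleotide reductase converts ribonucleotides to deoxyribonucleotides and is the committed step of DNA precursor synthesis. It needs a large subunit, which holds the catalytic and regulatory sites, and a small subunit, which carries the radical. In mammals the small subunit RRM2 is made mainly in S phase, whereas RRM2B also serves resting cells. Thymidylate is made from dUMP by thymidylate synthase with a folate donor that dihydrofolate reductase helps to regenerate, or salvaged from thymidine by thymidine kinase. Primitive red cell precursors of the embryo divide as they mature.

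Total counts ranged from 12751618 to 18101975 per library, and 14517 genes were tested. The targeted genes were checked first, in CPM, which are counts scaled to library size with TMM factors. blf stood at 2526 to 2835 CPM in the controls and at 45.3 to 118 CPM in the mutants, 32.6-fold lower on average. Which control genotype is right was not tested. The groups may thus differ in blf alleles as well as in the drl genes. drl, drll.1, drll.2 and drll.3 were each at 30.6 CPM or more in every control and at 0.462 CPM or less in every mutant library. The 10 members together took 0.133% to 0.154% of a control library's counts, from 18679 to 19946 reads. In the mutants they took 0.0533% to 0.0653%, from 9183 to 9826 reads.

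Most deoxynucleotide synthesis genes were lower in the mutants. Of the 10 members, 8 fell at an adjusted p below 0.05 by edgeR's quasi-likelihood test over all genes, 0 rose, and DTYMK and DUT did not pass. Over all genes tested, 9.92% fell and 13.0% rose. Every member's log2 fold change was below 0, with a median of -1.42 beside 0.11 over all genes. Sizes ranged from -5.22 for one RRM2 gene to -0.38 for DUT. In bulk libraries, fewer cells of a type and less RNA per cell cannot be told apart, which applies to every fall given here.

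The number of members that fell varied little with the processing. It was 8 with RLE factors, limma-voom and the replicate block, where 10.4%, 11.4% and 8.8% of all genes fell. It was also 8 without control replicate 1 or mutant replicate 2, where 7.85% and 7.57% of all genes fell. It was 7 without control replicate 2 or 3 or mutant replicate 1 or 3, where the shares of all genes were 5.38%, 6.23%, 6.85% and 7.41%. With no filter it was 7, beside 3.4% of all genes. DESeq2 called 9 of 10 (14.5% of all genes), and a filter of 10 CPM, which removed DUT, left 9 of 9 (18.7%). Scaling by library totals moved the median of all genes to 0.42 and that of the members to -1.09, with 7 members and 6.61% of all genes lower. Relative to all genes, the members' median was then -1.52, beside -1.53 with TMM. A change of scaling shifts all genes by nearly the same amount, which cancels here, so this near match is no check. Over all the other settings the relative median ranged from -1.77 without control replicate 1 to -1.17 with no filter, where the background was 30020 genes. Of all calls, 43.3% were falls with TMM, 28.5% with library totals and 33.2% with no filter.

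**Figure D1:**
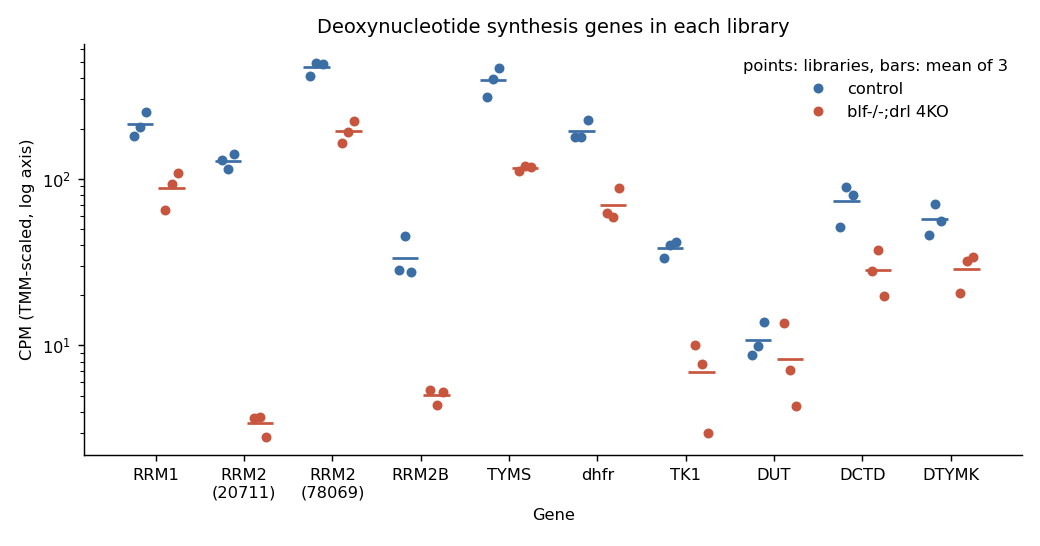
CPM of the 10 genes (horizontal axis) in each library on a log axis. Points are libraries, bars are means of 3, and the RRM2 genes carry the end of their ID in brackets; the first RRM2 gene stands at 114 to 141 CPM in the controls and at 2.84 to 3.74 CPM in the mutants, whereas the groups of DUT overlap.

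The large subunit gene RRM1 (ENSDARG00000014017) stood at 182, 204 and 251 CPM in control replicates 1, 2 and 3. Mutant replicates 1, 2 and 3 held 65.2, 93.0 and 108 CPM. The groups did not overlap, and RRM1 fell 2.39-fold (log2 fold change -1.26, SE 0.24, edgeR adjusted p = 0.00354). Of the 10 members 9, all but DUT, had every mutant library below every control, as had 19.8% of all genes tested.

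The small subunit genes fell by unequal amounts. The first RRM2 gene (ENSDARG00000020711) had 1751, 1380 and 1551 reads in the controls but 73, 66 and 43 reads in the mutants. As CPM these are 130, 114 and 141 against 3.67, 3.74 and 2.84. Every mutant library thus held a small remnant of the control level, 37.5-fold lower on average (log2 fold change -5.22, SE 0.32, edgeR adjusted p = 1.89e-06). Of all genes tested, 0.379% had a lower log2 fold change.

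The second RRM2 gene (ENSDARG00000078069) measured 415, 498 and 488 CPM in the controls and 165, 192 and 223 CPM in the mutants. The groups did not overlap, but every mutant library kept a substantial level. It fell 2.41-fold (log2 fold change -1.27, SE 0.18, edgeR adjusted p = 0.000503), next to the -1.26 of RRM1. The difference between the proteins of the RRM2 genes is not analysed here, and how reads that fit both were counted is not known, so the split between them carries that uncertainty.

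RRM2B (ENSDARG00000033367), the alternative small subunit, had 28.4, 45.1 and 27.5 CPM in the controls. The mutants had 5.43, 4.41 and 5.28 CPM. All mutant values lay close together and far below the controls, and RRM2B fell 6.68-fold (log2 fold change -2.74, SE 0.52, edgeR adjusted p = 0.00343).

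The make-up of the small subunit reads shifted. The first RRM2 gene supplied 22.6%, 17.3% and 21.5% of the reads of the 3 small subunit genes in the controls and 2.11%, 1.87% and 1.23% in the mutants. The second RRM2 gene went from 74.2% ± 1.70 to 95.7% ± 0.872, and RRM2B from 5.34% ± 1.38 to 2.54% ± 0.504 (SD, n = 3). These are shares of reads without correction for transcript length, so they show a shift between groups and not which transcript was more abundant. The log2 ratio of the first to the second RRM2 gene was -1.68, -2.13 and -1.79 in the controls and -5.49, -5.68 and -6.30 in the mutants. These ratios, in which library size cancels, differed by -3.96, or 15.5-fold (exact two-sided permutation test, p = 0.1, the smallest that 3 against 3 libraries allow). Adjusted over the 3 ratios tested in this way, p was 0.15 by the same exact test.

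The balance of small to large subunit reads differed less. The log2 ratio of both RRM2 genes together to RRM1 was 1.58, 1.59 and 1.33 in the controls and 1.37, 1.07 and 1.07 in the mutants. Control replicate 3 lay below mutant replicate 1, so the groups overlapped. The difference of -0.33 did not pass (exact two-sided permutation test, p = 0.2, adjusted p = 0.2).

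**Figure D2:**
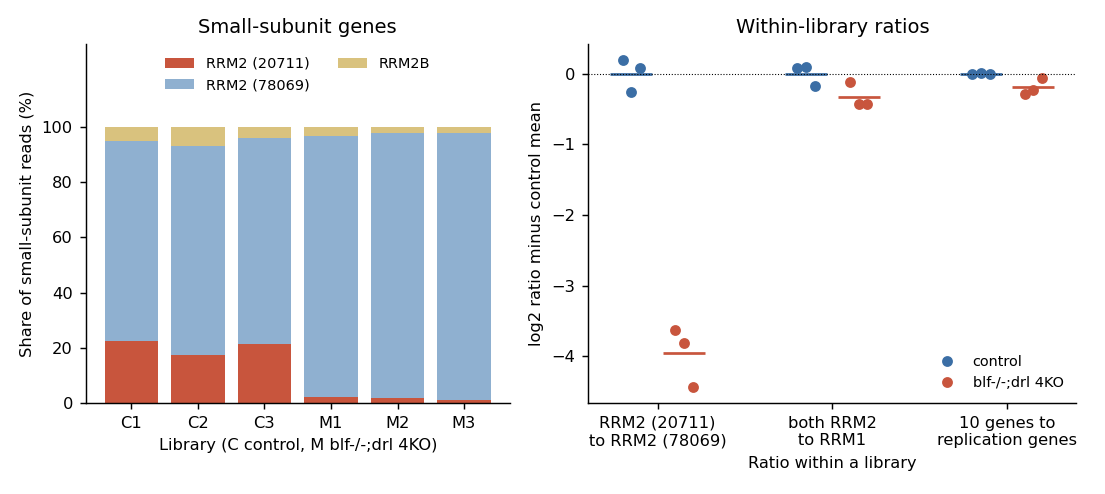
Left, share of reads of the 3 small subunit genes (per cent) in each library, with C for control and M for mutant. Right, log2 ratios within each library minus the control mean, with points for libraries and bars for means of 3; the ratio of the RRM2 genes differs by -3.96 between the groups, that of both RRM2 genes to RRM1 by -0.33, and that of the 10 members to replication genes by -0.19.

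The 3 thymidylate genes fell, each without overlap. TYMS (ENSDARG00000042894), thymidylate synthase, measured 310, 397 and 462 CPM in the controls and 111, 120 and 118 CPM in the mutants. The controls varied by 19.6% of their mean and the mutants by 3.99% (coefficient of variation). TYMS fell 3.35-fold (log2 fold change -1.74, SE 0.19, edgeR adjusted p = 0.000106). dhfr (ENSDARG00000004251), dihydrofolate reductase, measured 178, 178 and 224 CPM against 62.5, 59.3 and 87.5 CPM. All mutant values lay below the lowest control, and dhfr fell 2.77-fold (log2 fold change -1.47, SE 0.23, edgeR adjusted p = 0.0012). TK1 (ENSDARG00000102245), the thymidine kinase of the cytosol, measured 33.5, 40.3 and 41.5 CPM in the controls and 10.1, 7.75 and 2.97 CPM in the mutants. The mutants were spread widely, down to 45 reads in replicate 3, but all lay below the controls. TK1 fell 5.54-fold (log2 fold change -2.47, SE 0.55, edgeR adjusted p = 0.00803).

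Genes of the steps around dUMP and dTMP gave the least certain differences. DCTD (ENSDARG00000036990), the deaminase that makes dUMP from dCMP, measured 51.6, 88.7 and 80.1 CPM in the controls and 27.9, 37.3 and 19.9 CPM in the mutants. Its groups did not overlap, and it fell 2.59-fold (log2 fold change -1.37, SE 0.36, edgeR adjusted p = 0.0174). The call was lost without control replicate 2 or 3 (edgeR adjusted p = 0.095 and 0.0589) and without mutant replicate 1 or 3 (0.0555 and 0.0613). It was also lost with library totals and with no filter (edgeR adjusted p = 0.0586 and 0.0555).

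DTYMK (ENSDARG00000052103), the kinase that turns dTMP into dTDP, measured 45.8, 70.5 and 55.8 CPM in the controls and 20.7, 32.2 and 33.9 CPM in the mutants. The groups did not overlap, yet it did not pass (log2 fold change -0.99, SE 0.35, edgeR adjusted p = 0.0662). It passed with DESeq2 (adjusted p = 0.0148) and with the filter of 10 CPM (edgeR adjusted p = 0.0455). DUT (ENSDARG00000106529), the dUTPase that keeps uracil out of DNA and yields dUMP, measured 8.73, 9.90 and 13.9 CPM in the controls and 13.6, 7.07 and 4.35 CPM in the mutants. Its groups overlapped, with mutant replicate 1 above control replicates 1 and 2. The log2 fold change of -0.38 was smaller than its SE of 0.73 (edgeR adjusted p = 0.742). The mutants had 270, 125 and 66 reads and varied by 56.9% of their mean. Without mutant replicate 1 it was -0.90 (edgeR adjusted p = 0.503), and without mutant replicate 3 it was -0.04 (0.978).

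**Figure D3:**
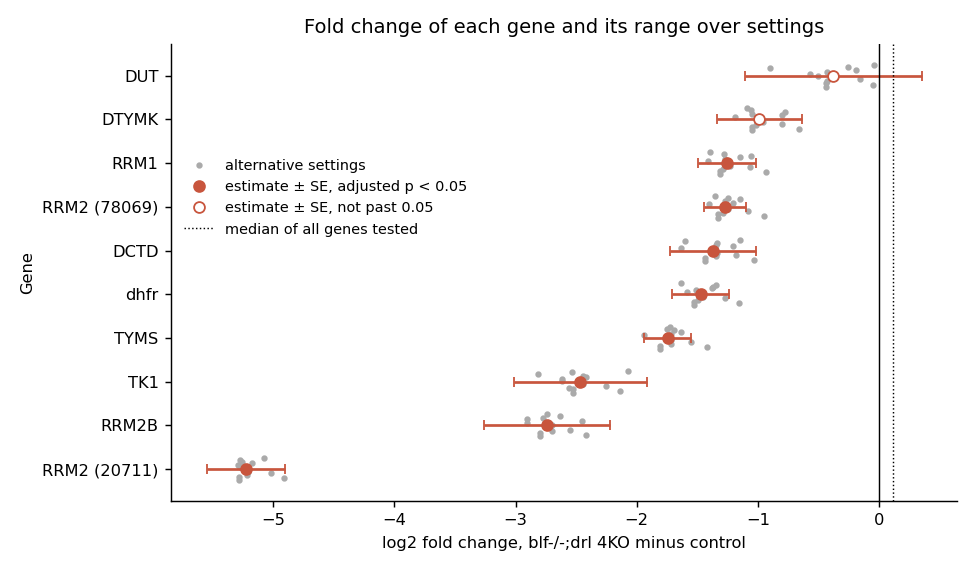
log2 fold change (horizontal axis) of each gene (vertical axis) with its SE, filled where the adjusted p was below 0.05, and grey points for the other settings tried. DUT and DTYMK are open, the first RRM2 gene stands apart at -5.22, and no setting brings an estimate above 0.

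DNA replication genes, which are used in the same phase of the cell cycle, fell by a like median amount. Of 51 tested, 35 fell (68.6%, beside 9.92% of all genes) and 0 rose (26 to 43 fell over the other settings). Their median of -1.46 stood beside the members' -1.42. GINS2, part of the replicative helicase, fell from 275 ± 35.5 to 60.5 ± 14.0 CPM (SD, n = 3; log2 fold change -2.18, SE 0.23, edgeR adjusted p = 7.51e-05). The DNA ligase gene LIG1 and the helicase gene MCM3 had log2 fold changes of -1.47 and -1.53 (edgeR adjusted p = 0.000112 and 0.000248). The log2 ratio of the members' summed reads to those of the replication genes was -2.45, -2.44 and -2.45 in the controls. In the mutants it was -2.73, -2.67 and -2.51, each below every control. The difference was -0.19 (exact two-sided permutation test, p = 0.1, the smallest possible, adjusted p = 0.15). Taken instead as the mean of log2 CPM over genes, it was -0.42 (exact permutation test, p = 0.1). For summed reads without the first RRM2 gene, an exclusion chosen after seeing the data, the difference was -0.08 (exact permutation test, p = 0.4). Leaving out the member with the largest fall could only shrink it.

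Member by member, the first RRM2 gene, RRM2B, TK1 and TYMS had a lower ratio to the replication genes in every mutant library than in any control. Their log2 ratios differed by -3.88, -1.35, -1.29 and -0.37. Of all genes tested, 3.39% had such a lower ratio without overlap, and 50.2% a higher one. The other 6 members overlapped between the groups on this measure. RRM1 differed by 0.08, the second RRM2 gene by 0.07, dhfr by -0.13, DCTD by -0.03, DTYMK by 0.35 and DUT by 0.84. With 3 libraries a group, an exact test of any of these ratios cannot go below 0.1.

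Pathways that supply the ribonucleotide precursors fell in part. All 5 tested genes of pyrimidine synthesis fell (4 or 5 over the other settings), beside 9.92% of all genes, with a median of -1.65. CAD, which encodes the enzyme of the opening steps, fell from 198 ± 28.8 to 77.4 ± 13.2 CPM (SD, n = 3; log2 fold change -1.36, SE 0.22, edgeR adjusted p = 0.00149). UMPS, which completes UMP, had a log2 fold change of -1.65 (SE 0.32, edgeR adjusted p = 0.00388). The CTP synthase genes listed as CTPS1 were at -3.32 (ENSDARG00000098386) and -1.01 (ENSDARG00000030700), with edgeR adjusted p of 0.00755 and 0.00804. DHODH, the dehydrogenase of the pathway, was at -2.56 (SE 0.81, edgeR adjusted p = 0.0413). It passed without mutant replicate 2 but not without any other library, and not with library totals, limma-voom, no filter or the replicate block (adjusted p = 0.0528 to 0.228).

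In purine synthesis 7 of 13 tested genes fell (53.8%, beside 9.92% of all genes) and 0 rose, with a median of -0.92. The count was 2 without control replicate 2 or mutant replicate 1, where 5.38% and 6.85% of all genes fell. It was 4 without control replicate 3 or mutant replicate 3, where 6.23% and 7.41% fell. With library totals or no filter it was 3, beside 6.61% and 3.4%. How many fell thus depended on the settings, from 2 to 8, whereas 0 rose under each. The median ranged from -1.19 to -0.57. IMPDH2, the branch-point enzyme toward GTP, fell from 257 ± 11.1 to 68.6 ± 22.8 CPM (SD, n = 3; log2 fold change -1.91, SE 0.25, edgeR adjusted p = 0.000327). ADSL, which acts in the common path and the AMP branch, was at -2.10 (SE 0.45, edgeR adjusted p = 0.00693). PFAS, of the common path, was at -2.23 (SE 0.57, edgeR adjusted p = 0.0163). Its adjusted p was 0.0624, 0.0534 and 0.0506 by edgeR without control replicate 2, mutant replicate 1 or mutant replicate 2.

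Folate and one-carbon genes feed TYMS and purine synthesis. Of 24 tested, 2 fell, 3 rose and 19 did not pass, with a median of -0.66 (1 to 5 fell and 1 to 5 rose over the other settings). These shares of 8.33% and 12.5% are near the 9.92% and 13.0% of all genes, so the counts are no result about the list. MTHFD1L, the formate-producing enzyme of mitochondria, rose from 7.88 ± 3.91 to 54.5 ± 22.3 CPM (SD, n = 3; log2 fold change 2.79, SE 0.55, edgeR adjusted p = 0.00421). gcshb, of the glycine cleavage system, had 305 reads in the controls together and 4 in the mutants. The ratio of its scaled counts was 110, with a 95% exact binomial interval from 42.4 to 405 for counting error alone. The controls held 25, 167 and 113 reads, and its log2 fold change was -6.67 (SE 1.45, edgeR adjusted p = 0.00713). mthfd2, a mitochondrial folate dehydrogenase, was at -1.14 (SE 0.31, edgeR adjusted p = 0.0224). It did not pass with library totals or no filter, nor without control replicate 2 or 3 or mutant replicate 2 or 3 (edgeR adjusted p = 0.0721 to 0.111). SLC25A32 (ENSDARG00000089791), a folate carrier gene of mitochondria, was at 1.54 (SE 0.39, edgeR adjusted p = 0.0159). Its p was 0.0514, 0.0586 and 0.0529 without control replicate 1, control replicate 3 or mutant replicate 3. The other gene listed as SLC25A32 (ENSDARG00000026835) had no call in either direction. The folate hydrolase gene GGH was at 1.11 (edgeR adjusted p = 0.0465), a call lost under 8 of 14 other settings, among them 5 of the 6 left-out libraries (all but mutant replicate 3).

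Of 23 other salvage and breakdown genes tested, 4 fell and 3 rose (3 to 7 fell and 2 to 4 rose over the other settings). The shares of 17.4% and 13.0% stand beside 9.92% and 13.0% of all genes, and no result about the list is read from them. The median was -0.38, but -0.05 with library totals, -0.22 without mutant replicate 2 and -0.56 without control replicate 1. DCK, the deoxycytidine kinase, fell from 66.8 ± 5.37 to 4.78 ± 2.58 CPM (SD, n = 3; log2 fold change -3.80, SE 0.51, edgeR adjusted p = 0.000404). UCK1, a uridine-cytidine kinase gene, had 434 reads in the controls together and 3 in the mutants. The ratio of its scaled counts was 208, with a 95% exact binomial interval from 70.8 to 1013 for counting error alone. The controls held 146, 230 and 58 reads, and its log2 fold change was -7.48 (SE 1.19, edgeR adjusted p = 0.0012). UCK2 (ENSDARG00000006074), of the same kinase family, had a log2 fold change of -1.21 (SE 0.24, edgeR adjusted p = 0.00383). PNP (ENSDARG00000078619), a purine nucleoside phosphorylase gene, rose from 14.5 ± 3.40 to 58.1 ± 8.85 CPM (edgeR adjusted p = 0.00302). The other gene listed as PNP (ENSDARG00000099802) had no call in either direction. The nucleoside diphosphate kinase gene nme2b.2 rose from 3.14 ± 2.01 to 25.5 ± 5.95 CPM (edgeR adjusted p = 0.00887). AK1, an adenylate kinase gene, went from 42.3 ± 15.7 to 90.8 ± 20.6 CPM (edgeR adjusted p = 0.0388). Its call was lost with the replicate block (0.065) and without control replicate 1 or 3 or mutant replicate 1 or 3 (0.0742 to 0.142). SAMHD1, the dNTP hydrolase, named here after its value was seen, was at -1.84 (SE 0.81, edgeR adjusted p = 0.129) and did not pass.

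Of 11 redox genes of the thioredoxin, glutaredoxin and glutathione systems, 2 fell and 1 rose. These shares of 18.2% and 9.09% stand beside 9.92% and 13.0% of all genes, and no result about the list is read from so few. The median of -0.17 ranged from -0.43 without mutant replicate 1 to 0.17 without mutant replicate 2, and was 0.12 with library totals and 0.04 with no filter. GLRX5, a mitochondrial glutaredoxin of iron-sulfur assembly, fell from 1418 ± 202 to 325 ± 60.1 CPM (SD, n = 3; edgeR adjusted p = 1.35e-05). TXNRD3, a thioredoxin reductase gene, fell from 228 ± 43.1 to 58.5 ± 16.8 CPM (edgeR adjusted p = 0.000429). GSR, glutathione reductase, was at 0.99 (SE 0.23, edgeR adjusted p = 0.009), and its p was 0.052 and 0.0564 without control replicate 1 or 3.

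The list of E2F and pocket protein genes also held other cell cycle genes, among them FOXM1 and CCNF. Of its 20 tested genes, 5 fell and 2 rose, with a median of -1.02. The shares of 25% and 10% stand beside 9.92% and 13.0% of all genes. Since the falls varied widely with the settings, no result about the list is read from its counts. The count of falls was 9 with DESeq2, 1 with library totals, no filter or without control replicate 2 or 3, 2 without control replicate 1 or mutant replicate 3, and 3 without mutant replicate 1. E2F4, a transcription factor that binds pocket proteins, was at -1.44 (SE 0.31, edgeR adjusted p = 0.00687) and passed under all 14 other settings. RB1, TFDP1 (ENSDARG00000019293), FOXM1 and CCNF were at -1.15, -0.94, -1.64 and -1.54 with edgeR adjusted p of 0.0259, 0.0386, 0.0487 and 0.0489. RB1 encodes the retinoblastoma pocket protein, TFDP1 a dimer partner of E2F factors, FOXM1 a factor of mitotic genes and CCNF cyclin F. Each of these 4 missed the threshold under 6 to 9 of the 14 settings. RBL2, a pocket protein gene, rose from 3.13 ± 1.51 to 22.6 ± 6.34 CPM (SD, n = 3; edgeR adjusted p = 0.0133), with a p of 0.0534 without mutant replicate 2. E2F5 went from 0.771 ± 0.706 to 15.9 ± 15.2 CPM (edgeR adjusted p = 0.0173), with a p of 0.0764, 0.0509 and 0.102 without control replicate 2, control replicate 3 or mutant replicate 1.

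**Figure D4:**
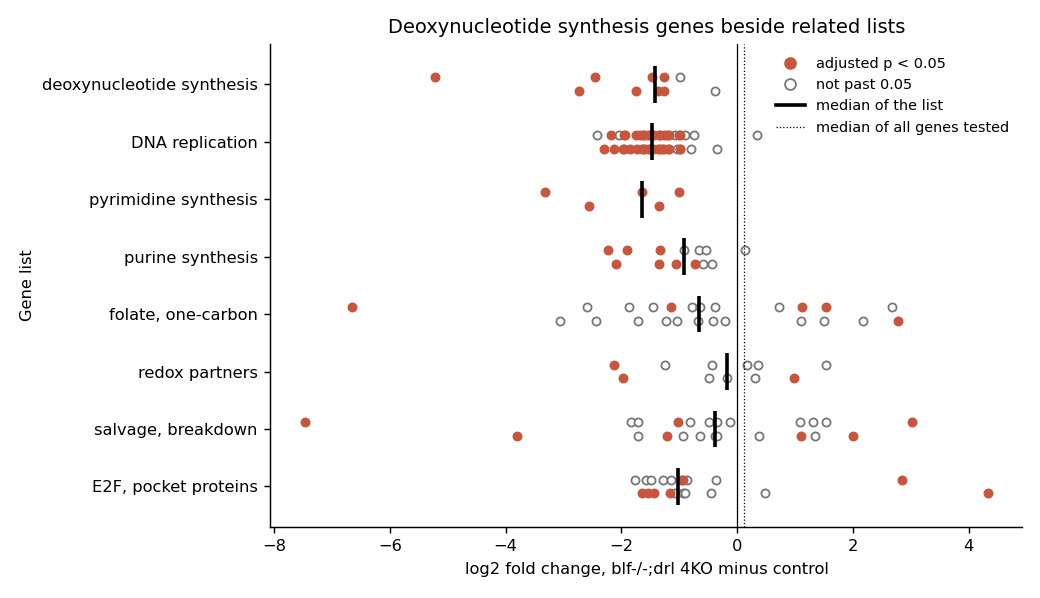
log2 fold changes (horizontal axis) of the tested genes of each list (vertical axis), filled where the adjusted p was below 0.05, with a bar at the list's median. The median is -1.42 for the members, -1.46 for replication, -1.65 for pyrimidine and -0.92 for purine synthesis. It is -1.02 for the list of E2F, pocket protein and other cell cycle genes.

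The summed CPM of cell type markers also differed between the groups, lower in the mutants for the erythroid list and higher for the other lists. The summed CPM of 30 erythroid markers was 110157 to 140025 in the controls and 14078 to 18222 in the mutants, 8.36-fold lower on average, and 27 of 29 tested fell. The members' summed CPM was 1382 to 1785 in the controls and 485 to 606 in the mutants, 2.92-fold lower. Myeloid markers summed to 1730 to 2144 CPM in the controls and 8837 to 10772 CPM in the mutants, and 28 of 31 rose. Epidermis markers summed to 311 to 412 against 2599 to 3373 CPM (13 of 25 rose). Skeletal muscle markers summed to 720 to 2394 against 3654 to 10529 CPM (14 of 22 rose, 7 to 18 over the other settings and 9 without mutant replicate 1). Endothelial markers summed to 178 to 236 against 728 to 804 CPM (8 of 19 rose, but 5 without control replicate 2 or without control replicate 3). Neural markers summed to 203 to 283 against 351 to 473 CPM (5 of 21 rose, 0 to 8 over the other settings and 0 to 3 with any library left out, and 1 fell). Over all genes, 13.0% rose and 9.92% fell. The neural shares were 23.8% and 4.76%, and no result about that list is read from its counts. Of the markers in these 6 lists, 0 were at 0 reads in all 3 controls and 1, a neural marker, was at 0 reads in all 3 mutants. The part of these shifts in the falls of the deoxynucleotide genes was not tested.

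The genes with the profile nearest to each reductase gene were found by Euclidean distance between log2 CPM over the 6 libraries, each gene centred on its mean. For RRM1 they were pdrg1, IMP4 and slbp, at 0.175, 0.216 and 0.22, where the median over 9437 genes was 2.5. slbp encodes the histone mRNA stem-loop binding protein, and IMP4 a factor of ribosomal RNA processing. For the second RRM2 gene they were si:dkey-23i12.5, CCT8 and ncl, at 0.131, 0.163 and 0.17, beside a median of 2.46. CCT8 encodes a subunit of a cytosolic chaperonin and ncl nucleolin. For the first RRM2 gene they were THUMPD3, the globin gene HBE1 (ENSDARG00000045143) and blf itself, at 0.705, 0.714 and 0.739, beside a median of 6.59. With 2 groups of 3, these distances mainly measure a like fold change, which was -4.93 for THUMPD3, -4.90 for that HBE1 gene and -5.02 for blf.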

How the data were processed

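Each library's deposited file holds raw counts for Ensembl genes. The submitters' processing notes list bcl2fastq, FastQC (0.11.9), HISAT2 (2.2.1), SAMtools (1.10), featureCounts (1.6.0) and the GRCz11 build. Strand, annotation release and treatment of reads that fit several genes: not given in the sources used here. A name table gave symbols for 29201 of 32520 IDs. Groups and replicate numbers were read from sample titles. Since no label says that replicates came from separate clutches, the p-values reflect the spread among these libraries alone, which may be technical. Replicates differed by more than sampling noise, with chi-square values of 31.8 to 68.0 for each degree of freedom.

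Counts were tested with edgeR 4.0.16 (R 4.3.3): filterByExpr, TMM, robust glmQLFit and glmQLFTest, with Benjamini-Hochberg adjustment over 14517 genes and a threshold of 0.05. SE was derived as the absolute log2 fold change over the root of F. The procedure was checked on simulated counts drawn with the dispersions fitted here. Far fewer genes changed in them than in these data, with rises and falls equally likely. Scaling under a wide shift was therefore not checked. The other settings were DESeq2 1.42.0, limma-voom (limma 3.58.1), RLE factors, library totals, no filter, 10 CPM or more in 3 libraries, a replicate block, each library left out, and omission of 26 globin and mitochondrial genes. Ratios within libraries were compared by exact permutation. Intervals on reads cover counting error only.

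The members and lists were chosen with earlier results of these data known. Genes named are the members, up to 3 of smallest p in each list, any gene behind a count of 5 or fewer, and the 3 nearest profiles among genes with a mean of 5 CPM or more. Marker lists are given as sums and counts only, and some results that this rule would name are not reported here. Of 357 list entries 25 had no match in the name table. A planned promoter search was not run. Sequences, lengths and coordinates were not used here, so levels of different genes are not compared.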

Additional observations from a re-analysis of the deposited data

How the results depend on the processing

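All members kept a log2 fold change below 0 under all 14 other settings (13 for DUT, which the 10 CPM filter removed). RRM1, both RRM2 genes, RRM2B, TYMS, dhfr and TK1 passed under each. DCTD lost its call under 6 and DTYMK gained one under 2. Over all genes 1440 fell, with 959 under library totals, 868 to 1220 with a library left out, 2108 by DESeq2 and 1021 of 30020 with no filter. The cause was not tested. No label says whether same-numbered libraries were paired. Their deviations from the group means correlated at 0.00355, -0.0408 and -0.000683, so no shared deviation was seen. With the replicate block, 8 members and 1277 genes fell. For the ratios, pairing by replicate number cannot change the mean differences of -3.96, -0.33 and -0.19, so these are no check. Only the p changes (exact sign-flip test, p = 0.25 each, the smallest it allows with 3 pairs). The ratio of the RRM2 genes ranged from -4.12 to -3.72, that of RRM2 to RRM1 from -0.43 to -0.28, and that of members to replication genes from -0.42 (mean of log2 CPM over genes) to -0.08. The fewest reads behind a member were 43 in a mutant library, for the first RRM2 gene.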
